A study of Mus musculus with 8 samples.

Results

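The nicotinic acetylcholine receptor of skeletal muscle is encoded by 5 genes, Chrna1, Chrnb1, Chrnd, Chrne and Chrng, and these were followed here through the soleus RNA of Megf10 KO and WT mice. They were found by gene symbol, and all 5 stood among the 16382 named genes of each library. Soleus, a slow postural muscle of the calf, was taken from 4 Megf10 KO mice, homozygous for loss of the gene in every tissue, and from 4 WT mice. All were females 7 months old, and each mouse gave 1 library. Some KO mice of the study were raised at another site than the rest, and the labels do not say where these were raised, so a part of rearing site in the differences below was not tested. The knockout allele removes exon 4 of Megf10, which encodes a transmembrane receptor of satellite cells and glia that takes part in engulfment. As a check of the labels, Megf10 had a level of 1.12 to 11.1 normalized counts across KO libraries, against 57.1 to 70.04 across WT libraries.

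The receptor is a pentameric channel in the muscle membrane that opens when the motor nerve releases acetylcholine. Every muscle receptor holds the alpha, beta and delta subunits, from Chrna1, Chrnb1 and Chrnd. The last place is taken by the gamma subunit, from Chrng, in fetal muscle and by the epsilon subunit, from Chrne, in the adult. After birth Chrne is transcribed by the muscle nuclei under the synapse, while Chrng is shut down and is known to return along the fiber in denervated and regenerating muscle. Myogenic transcription factors act on E-boxes (CANNTG) in these genes, and GABP, an ETS factor, acts on an N-box (CCGGAA) of Chrne.

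Sequence upstream of the transcription start is shown for Chrng and Chrne, since the fetal and the adult subunit are the genes whose ratio is followed below. Each run gives the 250 bases before the start from RefSeq on build GRCm38.p6, 5′ to 3′ on the strand of the gene, and capitals mark CAGCTG, a form of the E-box, and CCGGAA, the N-box. The Chrng stretch is chr1:87205561-87205810 on the plus strand, and the Chrne stretch is chr11:70619195-70619444 on the minus strand.
Chrng: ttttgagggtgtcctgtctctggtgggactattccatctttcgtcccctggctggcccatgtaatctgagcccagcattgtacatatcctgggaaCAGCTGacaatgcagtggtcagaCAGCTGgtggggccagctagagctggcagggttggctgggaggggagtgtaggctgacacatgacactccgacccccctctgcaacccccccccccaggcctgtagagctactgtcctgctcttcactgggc
Chrne: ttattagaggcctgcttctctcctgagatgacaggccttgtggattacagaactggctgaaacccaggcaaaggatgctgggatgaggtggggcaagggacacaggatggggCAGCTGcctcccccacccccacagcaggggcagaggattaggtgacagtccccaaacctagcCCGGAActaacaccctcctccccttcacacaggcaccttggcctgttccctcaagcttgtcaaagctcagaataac
In Chrng the motif CAGCTG begins at -155 and at -132 from the start, and CCGGAA is not in these letters. In Chrne 1 CAGCTG begins at -138 and 1 CCGGAA at -76. Both motifs were searched on both strands of 32851 such upstream windows, and CAGCTG, which is also one of the CANNTG sequences, was in 13.0% of them (in 1.26% at least 2 times). CCGGAA was in 12.0% of the windows, and CANNTG in 66.2%. Chrna1 held 2 CAGCTG and Chrnb1 none, neither had CCGGAA, and each had 3 CANNTG. These 4 of the 5 genes matched the promoter table. In GENCODE M21 the Chrng stretch lies in the first intron of a longer Chrng transcript, and the bases of the Chrne stretch next to the start belong to the first exon of a longer Chrne transcript. A match is a description of the letters and says nothing of binding in these muscles.

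Each library held gene counts that the authors normalized with DESeq2, and KO libraries summed to between 32.3 and 33.1 M, where M stands for 1e6, against between 33.6 and 35.7 M for WT libraries. The spacing of low values put the depth at 26.0 to 37.8 M assigned reads for KO libraries, against 36.7 to 41.5 M for WT libraries, with KO replicates 2, 3 and 4 the shallowest. KO was compared with WT by limma on log2(normalized count + 1) over all genes, a scale that understates the change of low genes, and a gene was called at an adjusted p under 0.05 (Benjamini-Hochberg). This called 1466 genes, 8.95% of those tested, with 845 higher in KO (5.16%) and 621 lower (3.79%). With libraries scaled to equal totals the split was 1279 higher and 321 lower.

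Of the 5 subunit genes, 3 did not pass (Chrnb1, Chrna1 and Chrne). The other 2, Chrng and Chrnd, rose in Megf10 KO soleus and none fell, against 5.16% and 3.79% of all genes. The rise was largest for the fetal gamma subunit, at 2.70-fold (95% interval 1.496 to 4.87), and was 1.35-fold (1.13 to 1.61) for the delta subunit. Before adjustment, 3 of the 5 had a p under 0.05, against 25.5% of all genes. All 5 estimates were above 0, against 49.0% of all genes, and their median log2 fold change was 0.29, against -0.0072 for all genes tested. The direction of each was the same under the 3 other scalings of the libraries, but these raised all 5 estimates and so could not turn them. Over all 19 other settings Chrng, Chrnd and Chrnb1 were above 0 in every one, Chrna1 in 18 and Chrne in 15. Whole muscle was sequenced, so more or fewer cells of a type cannot be told apart from more or less RNA per cell. With 5 genes these counts describe the set and are no test of it. Both calls lay close to the threshold and were lost in 6 of the 8 fits that leave out 1 library. From these same libraries the paper had already reported Chrng, Chrnb1 and Chrnd as increased with DESeq2. It also found Chrng altered in the same direction by qPCR. Chrnb1 did not pass here.

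**Figure D1:**
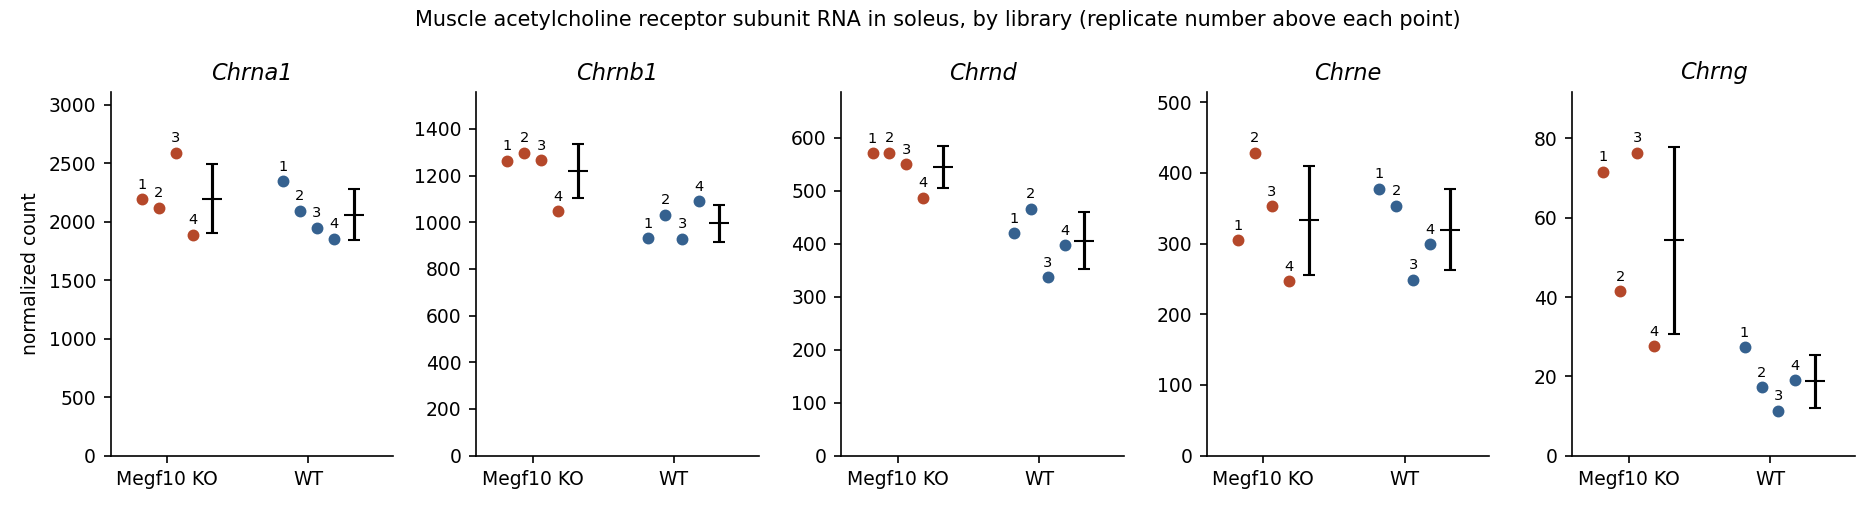
Normalized counts of the 5 subunit genes in each library, with Megf10 KO left of WT, replicate numbers above the points, and bars for the mean ± SD (n = 4 each). KO and WT points are apart for Chrnd and, by 0.155 normalized counts, for Chrng, and they overlap for Chrna1, Chrnb1 and Chrne.

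Chrng, the fetal subunit, stood at 71.6, 41.5, 76.4 and 27.6 normalized counts across KO replicates 1 to 4, against 27.4, 17.3, 11.3 and 19.1 across WT replicates 1 to 4. KO replicates 1 and 3 were far above every WT library, while KO replicate 4 was above WT replicate 1 by only 0.155 normalized counts, less than 1 read. Means were 54.3 ± 23.6 in KO and 18.8 ± 6.63 in WT (SD, n = 4 each). The fitted difference was 1.43 on the log2 scale, with an SE of 0.385 (limma, Benjamini-Hochberg adjusted p = 0.0439), and 1.98% of all genes had a higher fold change. Chrng was the scarcest of the 5, with about 22.4 to 83.1 reads in a KO library and 13.0 to 29.9 in a WT library, so counting error is part of its spread.

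Chrnd, which encodes the delta subunit of both fetal and adult receptors, stood at 570.5, 572, 549.9 and 487 normalized counts across KO replicates 1 to 4, against 420.1, 466, 337 and 397 across WT replicates 1 to 4. The lowest KO library was 20.7 normalized counts above the highest WT library, so the genotypes did not overlap. Means were 545 ± 39.8 in KO and 405 ± 53.8 in WT (SD, n = 4 each), with a fitted difference of 0.43 on the log2 scale with an SE of 0.115 (limma, adjusted p = 0.0427). The spread among KO libraries was narrow, with an SD of 7.31% of the mean, against 13.3% in WT. Chrnd and Chrng, the genes called, are neighbors on chromosome 1 and lie on the same strand, with no gene between them in GENCODE M21. Having no overlap and being higher in KO was seen for 2 of the 5 subunit genes and for 8.63% of all genes, and no subunit gene was lower without overlap, against 8.54% of all genes.

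Chrnb1, the beta subunit, stood at 1265, 1298, 1265 and 1048 normalized counts across KO replicates 1 to 4, against 933, 1033, 930.2 and 1091 across WT replicates 1 to 4. KO replicates 1, 2 and 3 were above every WT library and KO replicate 4 was below WT replicate 4, so the genotypes overlapped in that one library. Means were 1219 ± 115 in KO and 997 ± 79.2 in WT (SD, n = 4 each). The difference of 0.29 on the log2 scale, with an SE of 0.0924 and a 95% interval of 0.084 to 0.49, missed the threshold (limma, adjusted p = 0.0787). Chrnb1 passed without KO replicate 4 (log2 fold change 0.36, adjusted p = 0.0392 from limma) and with equal library totals (0.37, adjusted p = 0.0339).

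Chrna1, the alpha subunit that carries the acetylcholine binding site, stood at 2193, 2118, 2589 and 1887 normalized counts across KO replicates 1 to 4, against 2346, 2092, 1948 and 1852 across WT replicates 1 to 4. The ranges overlapped, and only KO replicate 3 was above all WT libraries. Means were 2197 ± 292 in KO and 2059 ± 215 in WT (SD, n = 4 each), with a fitted difference of 0.090 on the log2 scale with an SE of 0.105 (limma, adjusted p = 0.641). The interval of the fold change ran from 0.906 to 1.25, so a rise of the size of the Chrnd estimate lay outside it.

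Chrne, the adult subunit, stood at 305, 429, 353 and 247 normalized counts across KO replicates 1 to 4, against 377, 353, 249 and 299 across WT replicates 1 to 4. KO libraries held both the highest and the lowest value, so the WT range lay within the KO range. Means were 333 ± 77.0 in KO and 319.6 ± 57.5 in WT (SD, n = 4 each), with a fitted difference of 0.049 on the log2 scale with an SE of 0.185 (limma, adjusted p = 0.9004). The interval of the fold change, 0.779 to 1.37, leaves room for a moderate change in either direction. A gene on the opposite strand, 4930544D05Rik, lies within Chrne in GENCODE M21, and whether reads were assigned by strand is not given in the sources used here. Its level was 29.95 ± 6.36 normalized counts in KO and 42.35 ± 10.2 in WT (SD, n = 4 each; log2 difference -0.48, limma adjusted p = 0.308), about an order of magnitude below Chrne.

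The Chrng to Chrne ratio, which sets the fetal subunit against the adult one within each library, was higher in every Megf10 KO library than in any WT library. In normalized counts it was 0.235, 0.0969, 0.217 and 0.112 in KO replicates 1 to 4, against 0.0726, 0.0489, 0.0455 and 0.0639 in WT replicates 1 to 4. The mean ratio was 0.165 ± 0.0708 in KO and 0.0577 ± 0.0127 in WT (SD, n = 4 each). On the log2 scale, with 1 added to each count, KO exceeded WT by 1.38, and a two-sided exact permutation test gave p = 0.0286, the smallest that 4 against 4 libraries allow. KO replicates 1 and 3 formed the upper part of the KO range and KO replicates 2 and 4 the lower part, and the lowest KO ratio was still above the highest WT ratio. A scaling shared by all genes of a library leaves this ratio as it is.

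**Figure D2:**
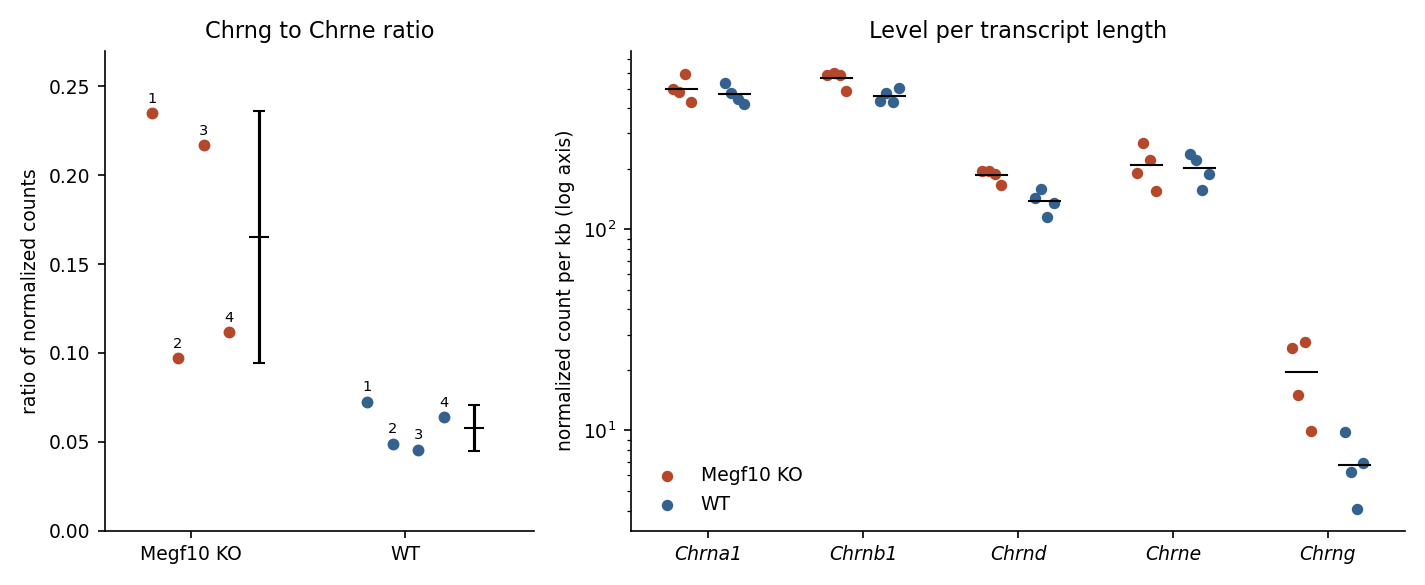
Left, the Chrng to Chrne ratio of normalized counts in each library, Megf10 KO left of WT, with bars for the mean ± SD (n = 4 each): KO ratios run from 0.0969 to 0.235 and WT ratios from 0.0455 to 0.0726. Right, normalized counts per kb of transcript on a log axis for the 5 genes, with lines at the means; Chrng is the lowest in every library.

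To compare levels between genes, normalized counts were divided by the length of the main GENCODE M21 transcript, which is 4386 bases for Chrna1, 2155 for Chrnb1, 2925 for Chrnd, 1591 for Chrne and 2780 for Chrng. Per kb, the order in KO was Chrnb1 (566 ± 53.5), Chrna1 (500.9 ± 66.6), Chrne (209 ± 48.4), Chrnd (186 ± 13.6) and Chrng (19.5 ± 8.48; SD, n = 4 each). In WT it was Chrna1 (469.5 ± 49.0), Chrnb1 (463 ± 36.8), Chrne (200.9 ± 36.1), Chrnd (138 ± 18.4) and Chrng (6.75 ± 2.39; SD, n = 4 each). Chrna1 and Chrnb1 did not differ beyond their spread in WT. Chrne was above Chrnd in 2 of 4 KO libraries and in 4 of 4 WT libraries. The fetal subunit stayed scarce also in KO: Chrng was 8.54 ± 3.39% of the summed Chrng and Chrne level per kb in KO and 3.19 ± 0.681% in WT (SD, n = 4 each). These shares rest on the annotated lengths and would move with another choice of transcript.

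The other ratios between subunits are given as values with no test. Chrng to Chrna1 did not overlap either, at 0.0146 to 0.0327 in KO and 0.00582 to 0.0117 in WT. Chrng to Chrnd was 0.0566 to 0.139 in KO and 0.0336 to 0.0652 in WT and overlapped, as did Chrng to Chrnb1. Among the ratios that leave Chrng out, Chrnd to Chrna1 was 0.2501 ± 0.0257 in KO and 0.197 ± 0.0249 in WT. Chrne to Chrnd was 0.608 ± 0.111 in KO and 0.787 ± 0.0747 in WT (SD, n = 4 each), and the genotypes overlapped in both ratios. Within the receptor set, the subunits thus differed in their estimates from 0.049 on the log2 scale for Chrne to 1.43 for Chrng.

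The subunits of other nicotinic receptors, which serve neurons and other cells, were mostly scarce, and none was called, against 8.95% of all genes. Of 11 such genes listed, 5 were in the tables (Chrna2, Chrna5, Chrna9, Chrna10 and Chrnb2), with a median log2 fold change of -0.030. Chrnb2 ranged over 36.2 to 71.3 normalized counts in KO and 26.7 to 38.6 in WT (log2 difference 0.71, limma adjusted p = 0.116), and with depth as a covariate its difference was 0.095. Chrna9 ranged over 20.03 to 69.9 in KO and 7.35 to 38.3 in WT (1.29, adjusted p = 0.154). Chrna2, at 110 to 260 in KO and 150 to 385 in WT, differed by -0.58 on the log2 scale (adjusted p = 0.327). It passed with the replicate number as a block (adjusted p = 0.0395) and was at -0.060 without KO replicates 2 and 3.

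Agrin from the nerve acts through LRP4, MuSK and DOK7 to gather receptors under the nerve ending, where rapsyn and the utrophin complex hold them. Of 12 genes of this clustering and anchoring machinery none was called in either direction, against 8.95% of all genes. Their median log2 fold change was -0.028, and with 12 genes the count is no test of the list. Dtna, which encodes dystrobrevin, was at 3168 ± 182 normalized counts in KO and 2675 ± 232 in WT (SD, n = 4 each; log2 difference 0.25, limma adjusted p = 0.0712). Utrn, utrophin, differed by 0.24 on the log2 scale (adjusted p = 0.0968) and Rapsn, the scaffold that binds the receptor directly, by -0.25 (adjusted p = 0.1305). With equal library totals 2 of the 12 passed, Dtna (0.32, limma adjusted p = 0.0188) and Utrn (0.315, adjusted p = 0.0458). Of 6 genes that act in receptor assembly none was called either (median 0.13). Tmem35a, at 8.77 normalized counts or fewer in every library, was higher in KO without overlap (log2 difference 1.73, limma adjusted p = 0.0983). The other assembly genes overlapped. Of the clustering genes Dtna and Utrn were higher in KO without overlap, as were 8.63% of all genes.

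**Figure D3:**
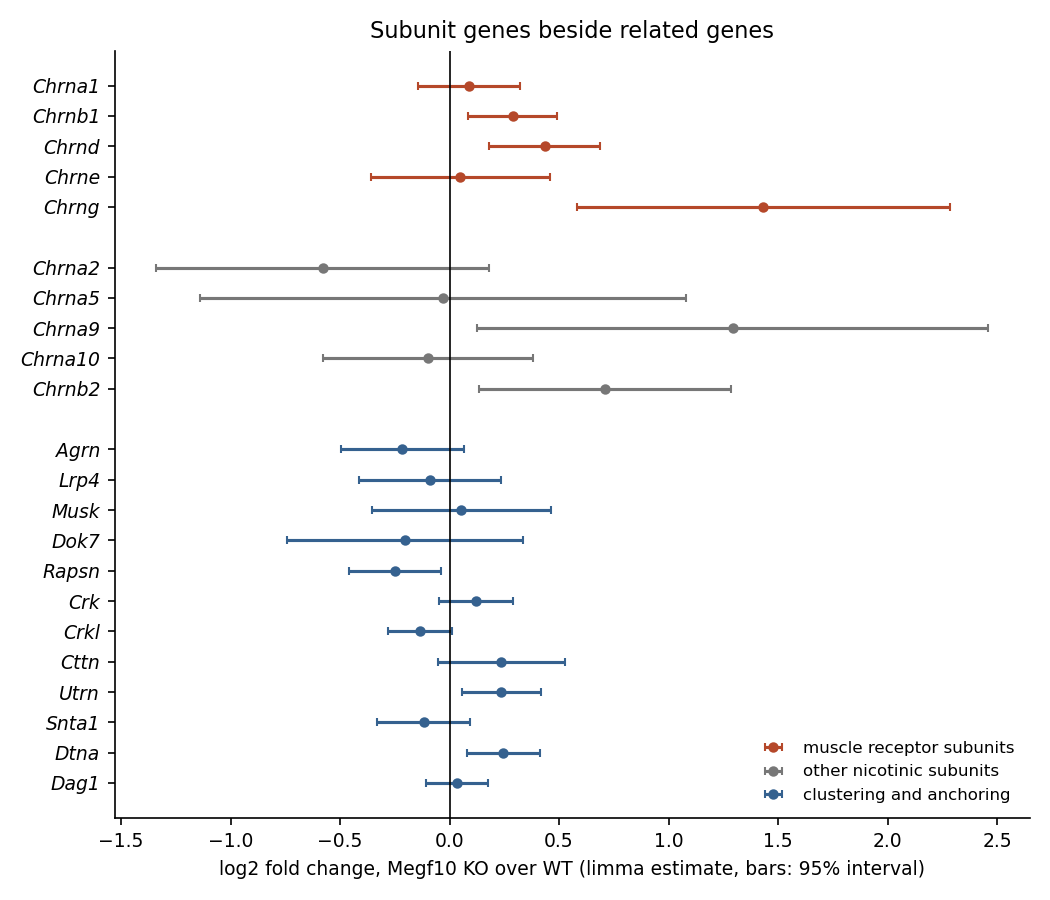
Log2 fold changes of Megf10 KO over WT from limma, with 95% intervals, for the 5 muscle subunits, 5 other nicotinic subunits and 12 clustering and anchoring genes. Among the muscle subunits the intervals of Chrnb1, Chrnd and Chrng lie above 0 before adjustment over all genes, and that of Chrng, from 0.58 to 2.28, is the widest of them.

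Among 16 genes that act on transcription of the subunits, 1 rose, 2 fell and 13 did not pass. Of all genes, 5.16% were called higher and 3.79% lower, and with 16 genes these counts are no test of the list. Myod1 and Myog were already named in the paper as altered in these same libraries. Etv5, an ETS factor of subsynaptic nuclei, rose to 740.0 ± 89.3 normalized counts in KO, against 556 ± 50.8 in WT (SD, n = 4 each; log2 difference 0.41, limma adjusted p = 0.0412). The call of Etv5 held in 2 of the 8 fits without 1 library (adjusted p up to 0.112), and was lost with the replicate block (0.0634) and without the trend in prior variance (0.0838). Nor did it hold without KO replicates 2 and 3 together (0.249) or with depth as a covariate (0.421). Myod1, a myogenic factor that binds E-boxes, fell by 1.55 on the log2 scale, and Hdac5, a class IIa histone deacetylase, by 0.38 (adjusted p = 0.0118 and 0.0118). Both passed in all 8 fits without 1 library, but neither did without KO replicates 2 and 3 together, nor with depth as a covariate, where Myod1 was at -0.75 (adjusted p = 0.476). Myog, the myogenic factor that drives subunit genes in denervated muscle, counted 583, 272, 814 and 267 in KO replicates 1 to 4, against 144, 263, 220.3 and 169 in WT replicates 1 to 4. It did not pass (log2 difference 1.15, adjusted p = 0.0666), although it did with equal library totals (adjusted p = 0.0499), without KO replicate 2 (0.0484) and without KO replicate 4 (0.0459). KO replicates 1 and 3 were the highest libraries for Myog, as they were for Chrng. In WT, replicate 1 had the lowest Myog and the highest Chrng. Whether they are linked was not tested.

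Of 7 genes of acetylcholine handling listed, 4 were tested and 1 was called, against 8.95% of all genes. This was Ache, the esterase that breaks down acetylcholine at the synapse, and the paper had already reported Ache as increased. It stood at 966, 950.0, 940.2 and 704 normalized counts across KO replicates 1 to 4, against 639, 662, 458 and 413 across WT replicates 1 to 4 (log2 difference 0.73, limma adjusted p = 0.0235). Its call held in 3 of the 8 fits without 1 library (adjusted p up to 0.072) and was lost without the trend in prior variance (0.0731) and with depth as a covariate (0.216). Of 8 genes known to change in denervated fibers, Gdnf, Nes and Runx1 rose and 5 did not pass, against 5.16% of all genes called higher. The median log2 fold change of the 8 was 0.48. The paper had already named Gdnf and Nes as altered in these same libraries, so the count and the median are no test of the list. The number called was 2 without KO replicate 3, and 1 when KO replicates 2 and 3 were both left out. It was 0 once the model included depth.

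Of 6 markers of immature fibers 5 rose in KO, against 5.16% of all genes called higher. Among the 5 were the myosins Myh3 and Myl4 and the fusion factors Mymk and Mymx. Mymx was at 0.630 normalized counts or fewer in WT. Its call was lost with a pseudocount of 5 (adjusted p = 0.0539 from limma). The paper had already named Myh3 as elevated in these same libraries, so the count is no test of the list. This count was 2 without KO replicate 3 and 3 without KO replicate 1, WT replicate 1, WT replicate 3 or WT replicate 4, while Myh3 and Myl4 passed in all 8 such fits. The summed level of the 6 was 13326, 12048, 16572 and 9353 normalized counts in KO replicates 1 to 4, against 2975 to 4772 in WT. Within KO this sum and Chrng were both highest in replicate 3, then in 1, 2 and 4, while in WT the highest sum was in replicate 2 and the highest Chrng in replicate 1. Myh3, the embryonic myosin of that list, rose by 2.22 on the log2 scale (adjusted p = 0.000434 from limma). The part of these fibers in the Chrng result was not tested.

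Of 4 markers of fast IIb fibers none was called, against 8.95% of all genes. They summed to 15250, 49263, 86861 and 6982 normalized counts in KO replicates 1 to 4, against 4860 to 20715 in WT. The libraries high in them, KO replicates 2 and 3, also had the highest Chrne values of the KO group. In WT the highest Chrne was in replicate 1, where the sum of these markers was lowest, at 4860. With KO replicates 2 and 3 left out, the log2 fold change was 1.27 for Chrng, 0.39 for Chrnd, 0.21 for Chrnb1, -0.012 for Chrna1 and -0.20 for Chrne. None of them passed with 2 KO libraries (adjusted p = 0.233 for Chrng and 0.247 for Chrnd from limma). The 2 remaining KO ratios of Chrng to Chrne were above all WT ratios, with a difference of 1.47 on the log2 scale.

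Of other markers, 4 of 6 for macrophages rose, namely Lyz2, C1qa, Mrc1 and Cd68 (summed level 3803 to 4779 in KO and 2245 to 2877 in WT) and 2 of 6 for fibroblasts, Dpt and Col1a1 (18099 to 26330 in KO and 15631 to 18197 in WT). Of 6 satellite cell markers 2 fell (Pax7 and Fgfr4), with sums of 1227 to 1758 in KO and 1591 to 1830 in WT, and of 6 Schwann cell markers none was called (1139 to 1521 in KO and 1446 to 2234 in WT). Of 8 markers of mature fibers, 1 rose (Tnni1) and 2 fell (Myh2 and Ckm). Of all genes, 5.16% were called higher and 3.79% lower, and with 6 or 8 genes these counts are no test of a list. Pax7 and Myh2 were already reported in the paper as lower in these same libraries. Leaving out 1 library moved the number called to 2 to 4 for macrophages (2 without KO replicate 3, WT replicate 1 or WT replicate 3), 1 to 3 for fibroblasts (1 without KO replicate 3, KO replicate 4, WT replicate 1 or WT replicate 3) and 1 to 4 for mature fibers (1 without any 1 of the KO replicates, WT replicate 3 or WT replicate 4). It was 1 to 2 for satellite cells (1 without WT replicate 3 or WT replicate 4) and 0 to 1 for Schwann cells (1 without WT replicate 4). With equal library totals, 5 mature fiber markers and 3 fibroblast markers were called. None of these markers was at 0 in every library, and their part in the subunit values was not tested.

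Genes with the profile most like each subunit were sought among 14788 others with a mean of at least 10, by the root mean square difference of log2 values over the 8 libraries after each gene was centered on its mean. Nearest to Chrng were Baiap2l1 (0.242), Ccn4 (0.282) and Trem2 (0.289), where Chrng itself spanned 2.65 on that scale. Nearest to Chrnd were Rab40b (0.0646), Kctd21 (0.0709) and Ccdc159 (0.0712), and nearest to Chrnb1 were Fam221b (0.0540), Gm46223 (0.0546) and Chd9 (0.0588). For Chrna1 they were Retreg2 (0.0579), Gm50387 (0.0691) and Bcap31 (0.0732), and for Chrne they were Nsdhl (0.123), Cryl1 (0.134) and Gpd2 (0.134). No subunit was among the nearest genes of another subunit.

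**Figure D4:**
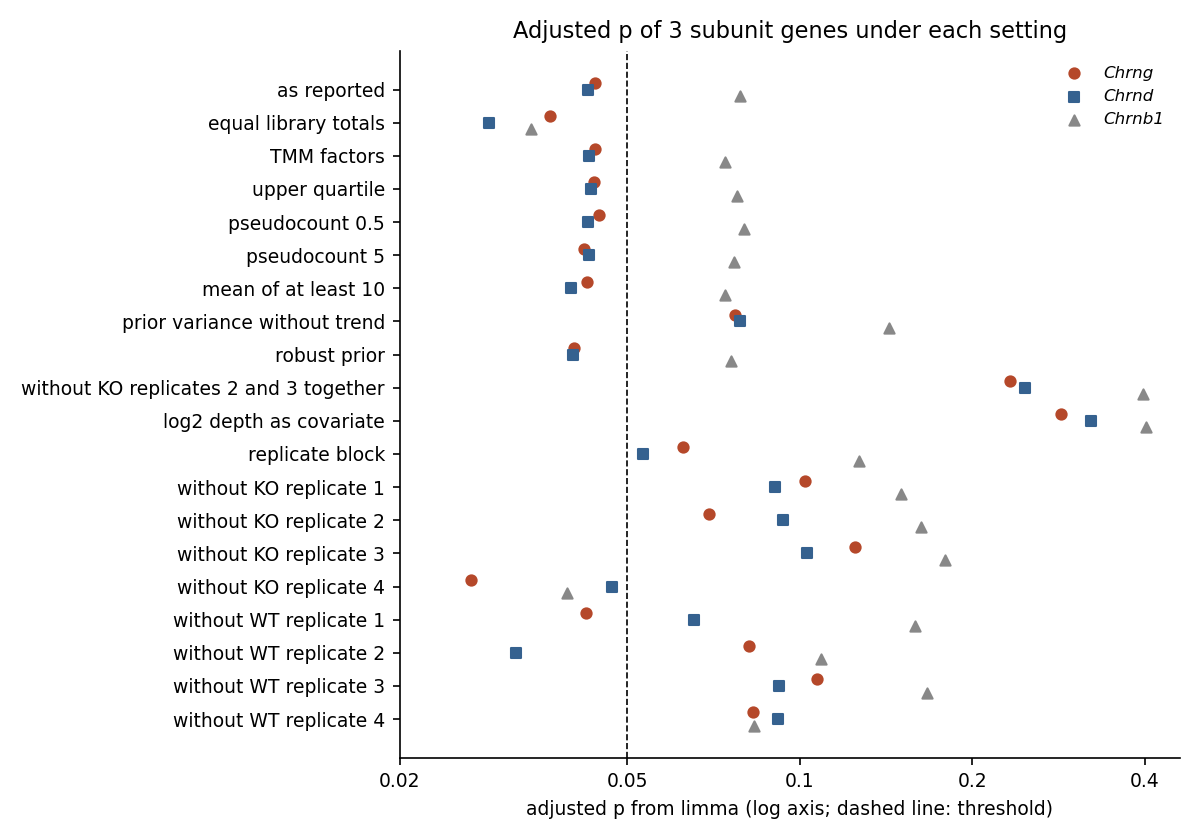
Adjusted p from limma on a log axis for Chrng (circles), Chrnd (squares) and Chrnb1 (triangles) as reported and under 19 other settings, with a dashed line at 0.05. Chrng and Chrnd each passed in 9 of the 19 and Chrnb1 in 2, and every fold change of the 3 genes stayed above 0.

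Across these settings the adjusted p of Chrng ran from 0.0267 to 0.286 and that of Chrnd from 0.0286 to 0.322 (limma). Chrng kept its call without KO replicate 4 or WT replicate 1 and lost it without any other single library, with a log2 difference of 1.23 to 1.71 over these 8 fits. Chrnd kept its call without KO replicate 4 or WT replicate 2, with 0.35 to 0.5045. Fewer libraries also give less precision. With depth as a covariate, neither passed (log2 fold changes of 1.75 for Chrng and 0.4964 for Chrnd, adjusted p = 0.286 and 0.322), and of all the lists above only Myh3 and Myl4 then passed. Of the 4 KO libraries, 3 were shallower than every WT library.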

How the data were processed

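RNA from 8 whole soleus muscles was sequenced after polyA selection. The authors trimmed reads with Trimmomatic, ran Salmon on transcripts, brought the estimates to gene level through tximport, dropped low counts (at most 5) and scaled libraries in DESeq2. The build was GRCm39. The signal values deposited by the authors are these normalized gene counts, 1 table per library. A further table holds the authors' own comparison (fold changes and p-values) and was not used.

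A line without a gene name, at most 0.0150% of a library, was left out. Every named gene passed a minimum summed value of 5. They were tested by limma 3.58.1 in R 4.3.3 on log2(value + 1), genotype as the only term, letting the prior variance depend on the mean (prior df 4.59), since the values are not counts. SD and SE are over libraries, 1 per mouse. The size of 1 read came from the spacing of values up to 60. Ratios were tested exactly with scipy 1.17.1. The model was tested on simulated data.

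Lists hold 15 sets of genes, the members included. The 4 genes of smallest p per list could be named; not all are, and the list of subsynaptic nuclei is not reported here. The members and lists were chosen with earlier results of these data known. Alternatives were other scalings, a pseudocount of 0.5 or 5, a minimum mean of 10, other priors, libraries left out, depth as a covariate and a replicate block. Transcript lengths and promoters came from GRCm38 annotation, not the authors' build.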

Additional observations from a re-analysis of the deposited data

Results flagged for a closer look

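In groups of 4 libraries, 80 groups of the genes named above and the ratio were examined for a library far from the others, by a criterion that about 1 in 20 groups meets by chance, and 5 met it. Chrnb1 was at 1048 normalized counts in KO replicate 4, where the rest of the KO group ran from 1265 to 1298. Ache was likewise low in KO replicate 4, at 704, against 940.2 to 966. Chrna10, a subunit of another nicotinic receptor, reached 149.96 in KO replicate 2, where the rest of that group ran from 111.9 to 115.5. Myh4, the IIb myosin, reached 3625 in WT replicate 4, the others being 746 to 911. Cd68, a macrophage marker, had 129 in WT replicate 4, against 161 to 167.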

How the results depend on the processing

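The subunit results rest on 4 libraries a group, and the calls of Chrng and Chrnd lie near the threshold. Scalings, pseudocounts, the filter at a mean of 10 and a robust prior changed no call of a subunit, except that Chrnb1 passed with equal library totals (log2 fold change 0.37). A prior variance without trend left 819 genes called, and Chrng (1.43) and Chrnd (0.43) did not pass (adjusted p = 0.0770 and 0.0785 from limma). Without KO replicates 2 and 3 together 164 genes were called, and the log2 fold changes were 1.27 for Chrng, 0.39 for Chrnd, -0.012 for Chrna1 and -0.20 for Chrne. With log2 depth as a covariate 58 genes were called, and they were 1.75, 0.4964 and, for Chrne, -0.10. In both, Myh4 turned to -0.87 and -0.57. The cause of these changes was not tested, and fewer libraries or degrees of freedom also give less precision. With depth as a covariate the SE was 0.649 for Chrng and 0.196 for Chrnd, against 0.385 and 0.115 as reported. Depth largely went with genotype in these libraries, so their parts cannot be told apart.

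Replicate numbers carry no pairing here: deviations of same-numbered libraries had correlations of -0.0675 to -0.0291 across genes. With the number as a replicate block 1278 genes were called, and Chrng (1.43, adjusted p = 0.0626) and Chrnd (0.43, adjusted p = 0.0532 from limma) did not pass. The difference in the log2 Chrng to Chrne ratio was 1.38 with the block (exact p = 0.125, the smallest possible) and 1.47 without KO replicates 2 and 3 (exact p = 0.133, the smallest possible), and neither design can pass.

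Leaving out 1 library in turn gave 662 to 1231 calls (662 without KO replicate 3, 907 without WT replicate 3, 959 without WT replicate 4). The log2 fold changes ran from 1.23 to 1.71 for Chrng, 0.35 to 0.5045 for Chrnd, 0.26 to 0.36 for Chrnb1, 0.0076 to 0.16 for Chrna1 and -0.082 to 0.18 for Chrne, which was below 0 without KO replicate 2 or WT replicate 3 (-0.065). The log2 ratio difference ran from 1.18 to 1.603 (exact p = 0.0571, the smallest that 3 against 4 allow). Chrna10 ran from -0.24 (without WT replicate 2) to 0.063 (without WT replicate 1).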
